A study of Mus musculus with 20 samples.

Results

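Heat shock proteins and chaperones were followed in whole blood of irradiated and sham-irradiated mice on microarrays. The members were every gene on the array whose name in the files began with Hsp, with Dnaja, Dnajb or Dnajc and a number, or with Cct and a number from 2 to 8. This rule, which used no measured value, took 83 of the 31093 genes on the array. They comprised 7 small heat shock proteins, 10 members of the HSP70 family, 3 of the HSP110 family, 3 of the HSP90 family, the 2 subunits of the mitochondrial chaperonin, 45 J-domain co-chaperones, 9 CCT genes and 4 other genes with Hsp in their names. Those last 4 were Hspg2, which encodes the matrix proteoglycan perlecan, the HSP70-binding protein gene Hspbp1, Hspbap1 and Hspb11. Hspa1b was not among the gene names of the array.

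The 20 arrays held 4 groups of 5 labelled replicates. Male mice of 8 to 10 weeks on a C57BL/6 background were labelled WT or Il10-/-, and both genotypes were littermates from crosses of heterozygous parents. The Il10-/- mice came from the strain B6.129P2-Il10tm1Cgn/J, a line deficient in the anti-inflammatory cytokine interleukin 10 and used as a model of inflammatory bowel disease. Mice of each genotype received whole-body X-rays at 7 Gy or a sham exposure of 0 Gy, and blood was taken by cardiac puncture 24 h later. Globin transcripts were depleted from the RNA, which was labelled with Cy3 and hybridised on 1-colour arrays, 1 array for each labelled replicate.

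Chaperones bind unfolded proteins and help them to fold, to reach their compartment or to be degraded. The HSP70 proteins cycle between ATP-bound and ADP-bound states, J-domain proteins bring them their clients and stimulate the ATPase, HSP110 proteins exchange the nucleotide, and HSP90 acts on later folding steps. Small heat shock proteins hold unfolded clients without ATP, and the CCT ring folds actin and tubulin in the cytosol. Heat shock factor 1 drives many of these genes through heat shock elements, while the unfolded protein response drives those of the endoplasmic reticulum (ER). In blood, chaperones are abundant in maturing red cells and in activated leukocytes.

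A level is the log2 processed signal minus the median of the non-control probes on that array, for the brightest probe of a gene, and a difference is that of 2 group means of such levels. Levels are compared only within a probe. Of the 83 members, 41 were well above background on all 20 arrays and 6 on none, and 72 passed the filter on background. The filter on probes that varied little removed 25 of those 72, so that 47 members were tested among 18587 features. A member was called where limma gave p below 0.001 and a Benjamini-Hochberg rate under 10% over all features. Only called members are described as having risen or fallen. In bulk blood, fewer cells of a type and less RNA per cell cannot be told apart.

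Several facts of the arrays bear on these values. The Il10 probe was well above background on all 10 arrays of mice labelled Il10-/- (1.94 to 3.29) and on none of those labelled WT (-2.64 to -1.06). That goes against the labels if the probe lies within the deleted part, and the position of the deletion relative to the probe is not given in the sources used here. A probe outside it checks nothing, and directions between genotypes here rest on the labels. WT 0 Gy replicate 5 had the smallest share of probes well above background, 29.8% against 34.2% to 56.9% on the others. It was the lowest of its group for 33 of the 47 tested members (70.2%) and for 67.9% of all features. Centring on the array median also placed this array lower than scaling to a reference array did. Relative to the median over arrays, the offset between these scalings was -1.14 on it, against -0.28 to 0.23 on the others. This offset enters every difference that uses WT 0 Gy. Replicates 1 and 2 were the closest pair in every group, with a spread of their differences of 0.209 to 0.313 against 0.355 to 1.25 for other pairs. The labels name them as separate samples and they were kept as such, but whether they are separate mice or repeat arrays of the same RNA cannot be told from these data, and counts with their average as 1 array are given below. If they are repeats, n is 4 and the p-values are too small. Each replicate number marked 1 slide, which carried 1 array of every group. Among marker lists, B cell genes fell after 7 Gy in both genotypes (8 of 9 tested), 2 of 8 T cell genes fell in each, and 5 and 6 of 9 erythroid genes fell in mice labelled WT and Il10-/-. Of 8 monocyte genes, 1 rose and 1 fell in mice labelled WT and 2 fell in those labelled Il10-/-. No NK cell gene (of 8), platelet gene (of 10) or neutrophil gene (of 9) was called after irradiation, while 6 of the 9 neutrophil genes were higher in mice labelled Il10-/- at 0 Gy. Genes of hepatocytes and heart muscle, which blood cells do not define, were high on some arrays, and their values stand beside members they moved with.

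The sequences before the start sites of 4 members are shown because their heat shock and ER elements are the features through which these genes are known to be regulated. Of the 83 members, 68 had a promoter in the RefSeq table (GRCm38.p6), and the 250 bases before the start were searched on both strands. Hspb1 was the member that passed the threshold after 7 Gy in both genotypes, Dnajb6 the member with the largest fall, Hspa1a the classical heat-inducible HSP70 gene and Hspa5 the ER HSP70. Each runs 5′ to 3′ toward the start, and capitals mark the motifs found.
Hspb1, chr5:135887669-135887918, plus strand: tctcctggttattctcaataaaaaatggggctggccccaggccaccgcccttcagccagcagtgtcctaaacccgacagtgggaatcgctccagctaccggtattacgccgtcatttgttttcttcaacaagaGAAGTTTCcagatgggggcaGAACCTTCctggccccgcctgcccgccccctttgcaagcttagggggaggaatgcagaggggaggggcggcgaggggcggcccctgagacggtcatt
Dnajb6, chr5:29735648-29735897, plus strand, 1 of 2 starts in the table: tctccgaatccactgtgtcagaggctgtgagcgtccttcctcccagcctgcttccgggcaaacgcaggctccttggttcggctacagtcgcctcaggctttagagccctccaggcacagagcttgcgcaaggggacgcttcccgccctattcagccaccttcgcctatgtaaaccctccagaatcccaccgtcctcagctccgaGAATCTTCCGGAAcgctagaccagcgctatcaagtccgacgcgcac
Hspa1a, chr17:34972157-34972406, minus strand: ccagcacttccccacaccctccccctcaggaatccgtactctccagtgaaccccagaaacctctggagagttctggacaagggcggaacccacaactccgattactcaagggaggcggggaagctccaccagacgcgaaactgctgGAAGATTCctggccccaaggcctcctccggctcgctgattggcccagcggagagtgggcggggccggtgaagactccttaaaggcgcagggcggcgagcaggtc
Hspa5, chr2:34771840-34772089, plus strand: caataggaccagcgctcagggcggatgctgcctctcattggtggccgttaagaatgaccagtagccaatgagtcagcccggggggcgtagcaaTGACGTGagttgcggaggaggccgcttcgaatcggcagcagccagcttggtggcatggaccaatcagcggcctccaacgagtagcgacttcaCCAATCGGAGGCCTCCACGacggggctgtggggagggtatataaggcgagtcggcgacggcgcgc
In Hspb1 the capitals mark 2 copies of GAANNTTC, a pair of inverted heat shock units, at 117 to 110 and 97 to 90 bases before the start, and Hspa1a held 1 copy at 104 to 97. In Dnajb6 they mark a run of 3 alternating units (GAA, TTC and GAA with 2 bases between neighbours) at 46 to 34 bases. In Hspa5 they mark the ER stress response element (CCAAT and CCACG with 9 bases between them) at 65 to 47 bases and TGACGTG, a core of the unfolded protein response element, at 157 to 151.

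Over all members with a promoter, GAANNTTC was found in 12 of 68 (17.6%) against 7.73% of the 27025 genes in the table, and the other orientation, TTCNNGAA, in 7 (10.3%) against 8.11%. These pairs overlap in a run of 3 units, and 16 members (23.5%) held at least 1 of them against 14.5% of genes. A run of 3 units in either order was present in Dnajb6, Hspd1 and Hspe1, which is 4.41% of members against 0.514% of genes. Hspd1 and Hspe1 both lie on chromosome 1. Their runs had the same spacing, at 144 to 127 and 89 to 72 bases before the start. Whether this is 1 site counted for both genes was not tested, and the shares of pairs above include both. The ER stress response element was present in Dnajc3, Hsp90b1 and Hspa5 (4.41% against 0.13%), all of which encode proteins of the ER. TGACGTG was present in Dnajc25, Hspa1l and Hspa5 (4.41% against 1.85%). Of the 7 called members with a promoter in the table, 3 (Hspb1, Dnajb6 and Dnaja4) held a heat shock pair, and the matches are descriptions of letters only.

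After 7 Gy in mice labelled WT, 3 of the 47 tested members were called, against 6.80% of all features, and all 3 rose (4.48% of features were called as higher and 2.32% as lower). They were the small heat shock proteins Hspb8 and Hspb1 and the ER co-chaperone Dnajb9. At an unadjusted p below 0.05 there were 20 of 47 members against 29.1% of features, 14 higher (19.5%) and 6 lower (9.58%). The groups of 11 members did not overlap, 8 higher at 7 Gy (11.8% of features) and 3 lower (4.26%). A rate under 5% alone gave 10 members (14.6% of features), and without the filter on variation 5 of 72 were called (5.83%). The median difference of the tested members was 0.74 against -0.02 over all features, and 32 of the 47 differences (68.1%) were above 0 against 49.1% of features. Without WT 0 Gy replicate 5 the medians were 0.40 and -0.19, and 5 members were called (8.46% of features), with falls of Dnaja4 and Dnajb6 added. The split of calls depended on scaling. With 75th percentile scaling 2 rose and 2 fell (795 and 761 of 17179 features). With quantile normalization 2 rose and 5 fell (705 and 693 of 17092 features). The median over all features moved from -0.02 to -0.28 with 75th percentile scaling.

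After 7 Gy in mice labelled Il10-/-, 5 of 47 members were called, against 9.16% of features. Hspb7 and Hspb1 rose (3.29% of features were called as higher), and the J-domain proteins Dnajb6, Dnaja4 and Dnajc9 fell (5.87% were called as lower). At an unadjusted p below 0.05 there were 20 members against 35.5% of features, 11 higher (13.2%) and 9 lower (22.3%). The groups of 9 members did not overlap, 5 higher at 7 Gy (6.13% of features) and 4 lower (10.9%). A rate under 5% alone gave 14 members (21.8% of features), and without the filter on variation 7 of 72 were called (8.20%). The median difference was 0.07 against -0.10 over all features, and 27 of the 47 differences (57.4%) were above 0 against 44.9%. The sign of both medians depended on the processing: that of the members was -0.22 with normexp background correction, -0.020 with the heart muscle covariate described below, -0.023 with replicates 1 and 2 averaged and -0.014 without the filter on variation, and that of all features was 0.15 when scaled to a reference array. The split was 3 rises and 2 falls with 75th percentile scaling (642 and 1071 of 17179 features). It was 1 rise and 4 falls with quantile normalization (676 and 995 of 17092 features). With the slide as a block, 5 members were called in mice labelled WT and 2, Dnajb6 and Hspb1, in mice labelled Il10-/- (8.75% and 6.94% of features). With replicates 1 and 2 of each group averaged as 1, 2 members were called in mice labelled WT (Hspb1 and Hspb8) and 1 in mice labelled Il10-/- (Dnajb6). The shares of features were then 4.06% and 4.38%.

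**Figure D1:**
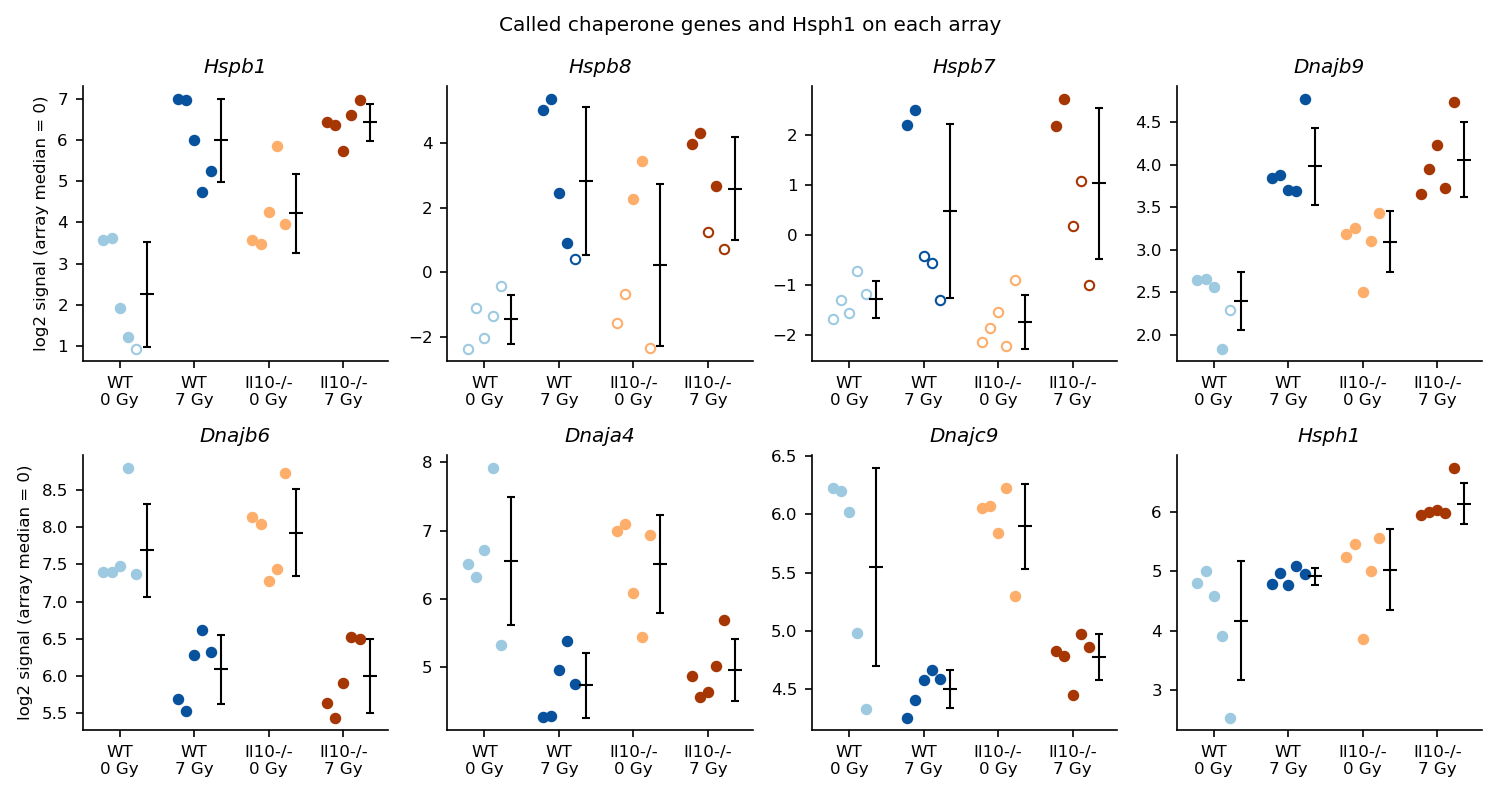
Level of each called member and of Hsph1 on every array (y axis, log2 signal minus the array median) by group (x axis), with the mean and SD as bars. Filled points are well above background and open points are not. Hspb1 lay at 0.93 to 3.61 in WT 0 Gy and at 4.73 to 7.02 in WT 7 Gy, and Dnajb6 lay lower in both irradiated groups.

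Hspb1 encodes HSP27, a small heat shock protein that holds unfolded clients and binds the actin cytoskeleton. Its level was 3.58, 3.61, 1.93, 1.21 and 0.93 on the 5 arrays of WT 0 Gy, the last not well above background, and 7.02, 6.99, 6.01, 4.73 and 5.26 in WT 7 Gy. The groups did not overlap, and every irradiated array was above every sham array of the genotype. It rose 13.5-fold, a difference of 3.75 (SE 0.61, n = 5 against 5, limma, adjusted p = 0.0012), and by 3.37 to 4.33 on each of the 5 slides. Among mice labelled Il10-/- it was 3.58, 3.47, 4.26, 5.85 and 3.96 at 0 Gy and 6.45, 6.38, 5.75, 6.63 and 6.98 at 7 Gy. Those groups overlapped through replicate 4 at 0 Gy, and the rise was 4.64-fold, a difference of 2.21 (SE 0.42, limma, adjusted p = 0.0040), with 0.78 to 3.02 on the slides. The responses of the genotypes differed by -1.53 (SE 0.79, limma, adjusted p = 0.69), which was not called. The probe is given at chr13:45173742-45173801 (mm9, minus strand) while the RefSeq gene is on chromosome 5, so that its assignment to Hspb1 is uncertain.

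Hspb8, which with the co-chaperone Bag3 directs misfolded proteins to autophagy, was not well above background on any WT 0 Gy array (-2.34, -1.10, -2.03, -1.34 and -0.42). In WT 7 Gy it was 4.99, 5.36, 2.46, 0.91 and 0.42, with all but the last well above background. It rose 7.66-fold with WT 0 Gy levels raised to at least the lowest signal well above background. The measured difference was 4.27 (SE 0.82, limma, adjusted p = 0.0033). Scaled to a reference array, the difference was 4.16 (limma, adjusted p = 0.011) and was not called. For the Il10-/- label it was -1.56, -0.68, 2.25, 3.44 and -2.33 at 0 Gy and 3.97, 4.29, 1.25, 2.65 and 0.72 at 7 Gy. Replicates 3 and 4 at 0 Gy lay within the range of the irradiated arrays, and the difference of 2.35 (SE 1.08, limma, adjusted p = 0.14) was not called. The probe lies at chr5:116859063-116859122 (mm9, minus strand), on the chromosome of the gene.

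Hspb7, a small heat shock protein of heart and skeletal muscle, was not well above background on any array at 0 Gy. After 7 Gy it was 2.19, 2.49, -0.44, -0.56 and -1.30 in mice labelled WT and 2.17, 2.72, 0.17, 1.07 and -1.01 in those labelled Il10-/-. In each irradiated group only replicates 1 and 2 were well above background. It rose in mice labelled Il10-/- (measured difference 2.76, SE 0.60, limma, adjusted p = 0.0079), whereas the difference of 1.77 in mice labelled WT (SE 0.65, limma, adjusted p = 0.077) was not called. The fold of that rise was 3.26 with 0 Gy levels raised to at least the lowest signal well above background. The 7 Gy arrays not well above background were taken as measured, so this is not a strict lower bound. The call was lost in 7 of the 10 fits that left out 1 array. Its probe lies at chr4:140980355-140980414 (mm9, plus strand).

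The other muscle members had the same 2 arrays on top. Hspb6 (HSP20), a small heat shock protein of heart and smooth muscle, was 1.61 to 2.53 in WT 0 Gy and 5.43, 5.38, 2.90, 1.80 and 1.68 in WT 7 Gy. For the Il10-/- label it was 1.99 to 3.24 at 0 Gy and 5.09, 5.26, 3.32, 3.65 and 2.41 at 7 Gy, and neither difference was called (1.43 and 1.39, the latter -0.65 with the heart muscle covariate described next). Hspb2, another muscle member, failed the background filter and was well above background only after 7 Gy, on replicates 1 to 3 in mice labelled WT (4.05, 4.15 and 1.33) and on replicates 1 and 2 in those labelled Il10-/- (3.73 and 3.84). Hspb3 was well above background on 3 arrays, and Hspb9, a testis member, was removed by the filter on variation.

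The mean level of 20 heart muscle genes moved with these members. It was -0.35 to 1.55 in WT 0 Gy and 6.00, 5.97, 3.12, 0.03 and 0.04 in WT 7 Gy. With the Il10-/- label it was -0.49 to 2.16 at 0 Gy and 5.78, 5.79, 3.44, 4.00 and 0.93 at 7 Gy. On single arrays, 2 to 14 of the 20 genes were well above background in WT 0 Gy, 4 to 19 in WT 7 Gy, 6 to 14 in Il10-/- 0 Gy and 8 to 18 in Il10-/- 7 Gy. Of 13 tested, none rose in mice labelled WT and 6 rose in those labelled Il10-/-. With this mean as a covariate the difference of Hspb7 was 0.23 in mice labelled Il10-/- and 0.53 in those labelled WT, neither called. The difference of Hspb1 in mice labelled WT was then 2.95 and that of Hspb8 2.60, both still called. That of Hspb1 in mice labelled Il10-/- was 2.53 (limma, adjusted p = 0.10), larger than without the covariate, and was not called. Over all features the calls went from 6.80% to 4.47% in mice labelled WT and from 9.16% to 2.22% in those labelled Il10-/-. The heart muscle mean was itself higher on most arrays of Il10-/- 7 Gy than at 0 Gy, so this fit cannot fully separate it from dose. Replicates 4 and 5 of WT 7 Gy, with heart muscle means of 0.03 and 0.04, had Hspb1 levels of 4.73 and 5.26, and their means of the hepatocyte genes described next, 1.98 and 4.68, were above those of every WT 0 Gy array.

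**Figure D2:**
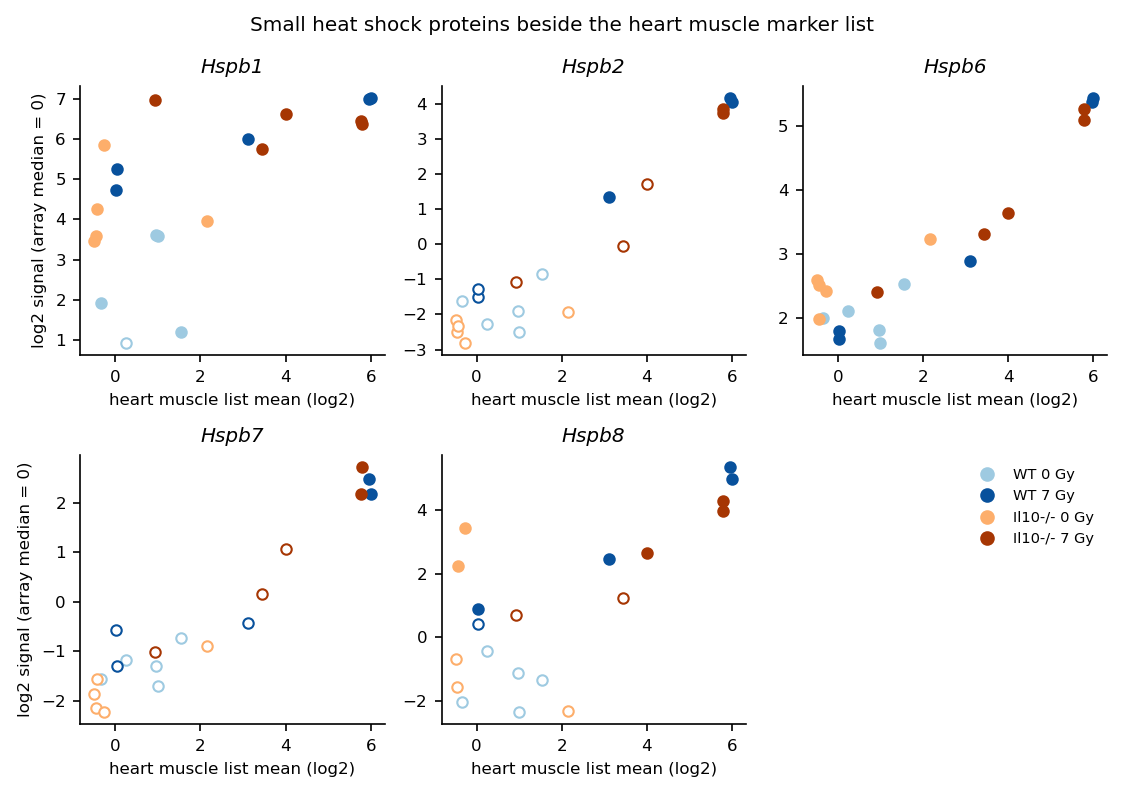
Level of Hspb1, Hspb2, Hspb6, Hspb7 and Hspb8 on each array (y axis) against the mean level of 20 heart muscle genes on the same array (x axis), both as log2 signal minus the array median, with 1 point per array coloured by group. Hspb2, Hspb6 and Hspb7 were highest on the arrays where the heart muscle mean was near 6, and Hspb1 was high in irradiated mice across the range of that mean.

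Dnajc22, a J-domain protein found mainly in liver, had the largest difference among members not called in mice labelled WT, 3.06 (SE 0.84, limma, adjusted p = 0.024). It was not well above background in WT 0 Gy and was 4.68, 4.78, 1.47, -0.20 and 0.36 in WT 7 Gy. In Il10-/- 0 Gy it was well above background only on replicates 3 and 4 (2.00 and 3.13), the arrays on which Hspb8 was also high, and in Il10-/- 7 Gy only on replicates 1 and 2 (3.00 and 3.09). The mean of 20 hepatocyte genes was 0.07 to 1.38 in WT 0 Gy and 10.41, 10.46, 7.52, 1.98 and 4.68 in WT 7 Gy. In Il10-/- 0 Gy it was 1.54, 1.64, 7.53, 8.78 and 1.44, and in Il10-/- 7 Gy 8.68, 8.72, 1.24, 7.38 and 4.09. Between 6 and 14 of the 20 genes were well above background on single arrays of WT 0 Gy, 15 to 20 in WT 7 Gy, 14 to 20 in Il10-/- 0 Gy and 6 to 20 in Il10-/- 7 Gy. Of 17 hepatocyte genes tested, 11 rose in mice labelled WT and none in those labelled Il10-/-, while 2 were higher in mice labelled Il10-/- at 0 Gy. Hspb1 levels were also set beside this list. Their order over the WT 7 Gy arrays was close to that of the hepatocyte mean, with the lowest values of both on replicate 4, and in Il10-/- 0 Gy the highest levels, 5.85 and 4.26, were on replicates 4 and 3. Hspb1 and the hepatocyte mean were both lowest on replicate 3 of Il10-/- 7 Gy (5.75 and 1.24). The highest Hspb1 level of that group, 6.98, was on replicate 5, where the hepatocyte mean was 4.09. Over WT 0 Gy, both were highest on replicates 1 and 2 and lowest on replicate 5, with replicates 3 and 4 in opposite order. The part of this RNA in the levels of Hspb1, Hspb8 and Dnajc22 was not tested.

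Among the cytosolic proteins of the HSP70, HSP110 and HSP90 families, no difference was called after irradiation. Hspa1a, the stress-inducible HSP70, was 0.13, 0.56, -0.30, -0.90 and -2.24 in WT 0 Gy and 0.01, 0.84, 1.05, 1.39 and 1.87 in WT 7 Gy. Among mice labelled Il10-/- it was 0.55, 0.76, -0.63, -0.12 and 1.22 at 0 Gy and 1.04, 1.49, 2.77, 1.98 and 3.62 at 7 Gy. The groups overlapped in both genotypes, and the differences were 1.58 (SE 0.52, limma, adjusted p = 0.052) and 1.82 (SE 0.49, limma, adjusted p = 0.021). The probe lies at chr17:35094199-35094258 (mm9, minus strand) and may share signal with the near-identical copy Hspa1b. Hsph1, an HSP110 protein that exchanges the nucleotide of HSP70, was 4.81, 5.01, 4.59, 3.91 and 2.54 in WT 0 Gy and 4.78 to 5.10 in WT 7 Gy, a difference of 0.74, or 0.34 without WT 0 Gy replicate 5. In mice labelled Il10-/- it was 5.24, 5.46, 3.87, 5.00 and 5.57 at 0 Gy and 5.95, 6.00, 6.03, 5.99 and 6.75 at 7 Gy, with no overlap and a difference of 1.11 (SE 0.33, limma, adjusted p = 0.031).

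Hsp90aa1, the inducible cytosolic HSP90, was 4.59 to 6.13 in WT 0 Gy and 6.38 to 7.09 in WT 7 Gy, which did not overlap (difference 0.89, SE 0.40, limma, adjusted p = 0.15). In mice labelled Il10-/- it was 5.62 to 6.71 and 6.52 to 7.30, a difference of 0.55. Dnajb1 (HSP40), the main J-domain partner of the inducible HSP70, differed by 0.21 and 0.08, and the first of these changed sign with 75th percentile scaling and quantile normalization. Dnaja1, a cytosolic J-domain protein, differed by 0.78 in mice labelled WT (0.40 without WT 0 Gy replicate 5) and by 0.73 (SE 0.28, limma, adjusted p = 0.080) in those labelled Il10-/-, where the groups did not overlap. Its probe is given on chromosome 1 while the gene is on chromosome 4, and its assignment is uncertain. These values and those of Hspa1a and Hsph1 did not reach the threshold used here.

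The constitutive members Hspa8 (HSC70) and Hsp90ab1 varied too little for the filter and were examined alone with 2-sided exact permutation tests, unadjusted, whose smallest possible p is 0.0079. That p arises whenever the groups do not overlap. By limma without the filter on variation, neither gene was called in any comparison. Hspa8 was 7.36 to 10.53 in WT 0 Gy and 10.20 to 10.77 in WT 7 Gy (difference 0.94, exact p = 0.17). It was 10.36 to 10.73 in Il10-/- 0 Gy and 10.78 to 11.35 in Il10-/- 7 Gy, without overlap (difference 0.40, exact p = 0.0079). Hsp90ab1 showed the other arrangement, with 8.41 to 9.49 in WT 0 Gy and 9.79 to 10.20 in WT 7 Gy (difference 0.74, exact p = 0.0079), and a difference of 0.15 (exact p = 0.52) in mice labelled Il10-/-. The probe of Hspa8 is given on chromosome 5 and the gene is on chromosome 9, so that its assignment is uncertain.

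Dnajb9 (ERdj4), an ER J-domain protein that aids the degradation of misfolded proteins and restrains the stress sensor Ire1, rose in mice labelled WT. Its level was 2.64, 2.65, 2.56, 1.84 and 2.29 in WT 0 Gy and 3.84, 3.88, 3.70, 3.69 and 4.78 in WT 7 Gy. The groups did not overlap, and the difference was 1.58 (SE 0.37, limma, adjusted p = 0.011). Its level in mice labelled Il10-/- was 3.19, 3.26, 2.49, 3.10 and 3.43 at 0 Gy and 3.65, 3.95, 4.23, 3.72 and 4.73 at 7 Gy, again without overlap (difference 0.96, SE 0.27, limma, adjusted p = 0.026), which was not called. A second probe of the gene was called there, with a difference of 1.33. The probe lies at chr12:45307313-45307372 (mm9, minus strand). The call in mice labelled WT was lost in 9 of the 10 fits that left out 1 array, with differences between 1.38 and 1.66 where it was lost.

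Hspa5, Hsp90b1 and Hspa13 had differences of similar size in mice labelled WT that were not called. Other ER members differed less or in the other direction. Dnajb11, removed by the filter on variation, had means of 4.70 in WT 0 Gy and 5.79 in WT 7 Gy. Dnajc14, of the ER membrane, had means of 4.36 and 3.57. Hspa5 (BiP), the ER HSP70 that holds the stress sensors inactive, was 7.19, 7.18, 6.99, 5.52 and 4.64 in WT 0 Gy and 8.15, 8.15, 7.49, 7.56 and 8.22 in WT 7 Gy. The groups did not overlap, and the difference was 1.61 (SE 0.50, limma, adjusted p = 0.041). Its range in mice labelled Il10-/- was 7.15 to 8.25 at 0 Gy and 7.63 to 8.29 at 7 Gy, a difference of 0.35. Hsp90b1 (GRP94), the ER HSP90, was 7.00, 7.06, 6.91, 5.55 and 4.57 in WT 0 Gy and 7.28 to 8.19 in WT 7 Gy (difference 1.53, SE 0.49, limma, adjusted p = 0.048), and differed by 0.17 in mice labelled Il10-/-. Replicates 4 and 5 of WT 0 Gy held the lowest values of both genes, and without replicate 5 the differences were 1.19 and 1.11. Hspa13, an HSP70 of the microsomes, differed by 1.60 (limma, adjusted p = 0.083) and 0.65, and its groups did not overlap in either genotype. Dnajc3 (P58IPK), an ER co-chaperone removed by the filter on variation, differed by 1.17 in mice labelled WT (exact permutation p = 0.024, unadjusted) and by 0.27 in mice labelled Il10-/- (exact permutation p = 0.079, unadjusted).

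**Figure D3:**
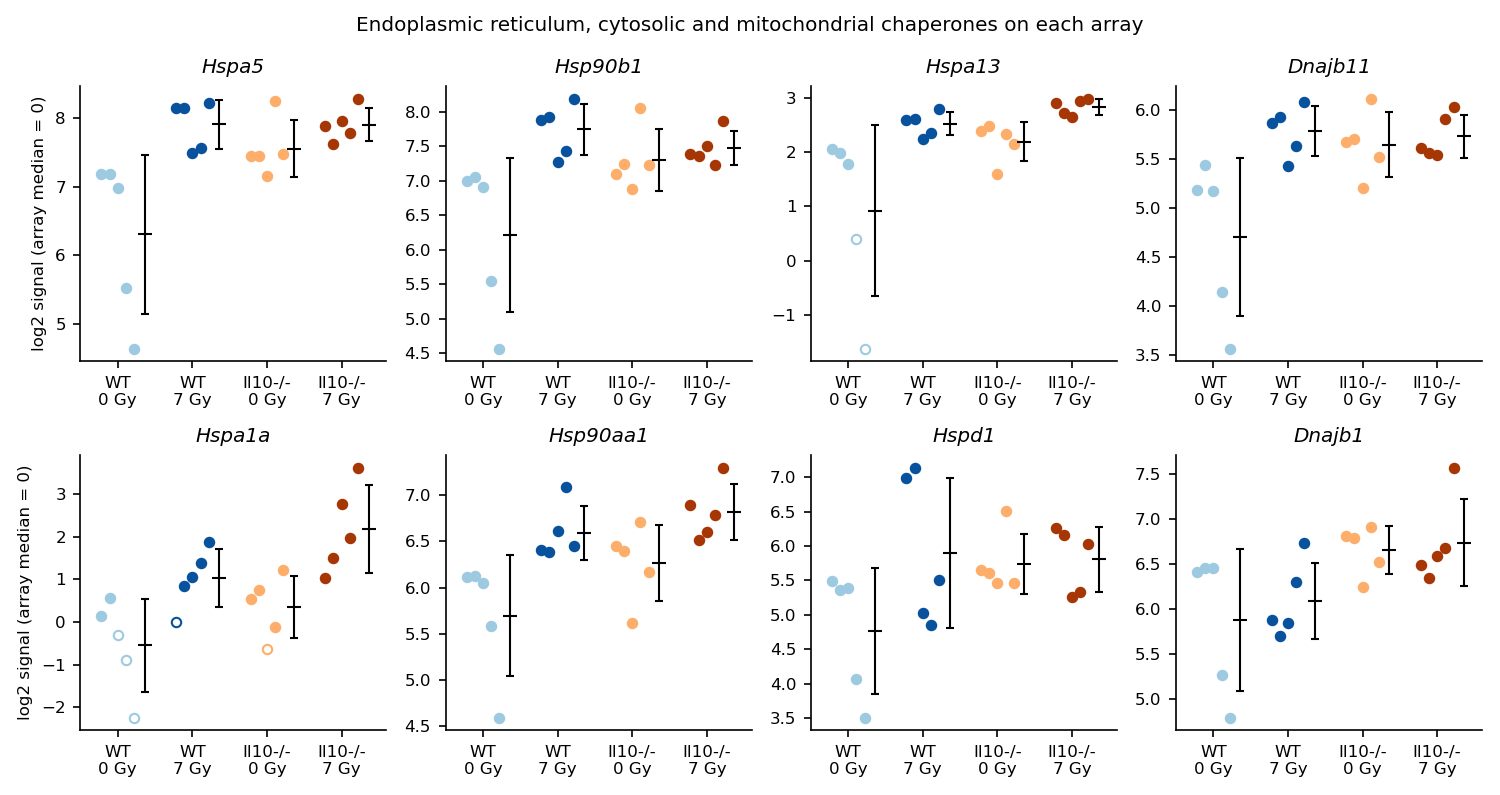
Level on every array (y axis, log2 signal minus the array median) by group (x axis) for the ER members Hspa5, Hsp90b1, Hspa13 and Dnajb11, the cytosolic members Hspa1a, Hsp90aa1 and Dnajb1 and the mitochondrial member Hspd1, with the mean and SD as bars. Replicates 4 and 5 of WT 0 Gy are the low points of Hspa5 and Hsp90b1.

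A list of 28 further ER folding and unfolded protein response genes, of which 23 were tested, gave the other genes of this pathway. Of these, 3 rose in mice labelled WT (against 4.48% of features), namely Sdf2l1, part of a BiP-bound complex, by 2.42 (SE 0.49, limma, adjusted p = 0.0043), Sil1, the nucleotide exchange factor of BiP, by 2.41, and the protein disulfide isomerase P4hb by 2.40. In the Il10-/- groups none was called. Below an unadjusted p of 0.05, limma gave 11 higher and none lower in mice labelled WT (19.5% and 9.58% of features), 5 higher and 2 lower in those labelled Il10-/- (13.2% and 22.3%), and 11 below 0 in the interaction of genotype and dose (7.00% of features in either direction), none called. The median difference of the list was 1.08 in mice labelled WT and 0.18 in those labelled Il10-/-, against -0.02 and -0.10 over all features. For the interaction the median over all features was -0.20. Without WT 0 Gy replicate 5 the medians over all features were -0.19 in mice labelled WT and 0.02 for the interaction. The list was not examined without that array. The hepatocyte genes given above, which are of a secretory cell type, were also higher in WT 7 Gy, and their part in these values was not tested.

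The mitochondrial members were not called in either genotype. Hspd1 (HSP60) and Hspe1 (HSP10), which form the folding chamber of the matrix, differed by 1.14 and 0.91 in mice labelled WT and by 0.07 and 0.06 in those labelled Il10-/-. Hspa9 (mortalin), the matrix HSP70, differed by 1.02 and -0.04. In WT 7 Gy all 3 genes were highest on replicates 1 and 2, where Hspd1 was 6.99 and 7.14 against 4.85 to 5.50 on the other arrays. These are the arrays with the highest hepatocyte means (10.41 and 10.46) and heart muscle means (6.00 and 5.97) of that group. In Il10-/- 0 Gy all 3 were highest on replicate 4 (Hspd1 6.51, Hspe1 6.78 and Hspa9 5.33), where the hepatocyte mean was also highest (8.78), and the part of this RNA was not tested. Without WT 0 Gy replicate 5 the differences of Hspe1 and Hspa9 in mice labelled WT were 0.50 and 0.67. The probes of Hspd1 and Hspe1 are given on chromosomes 12 and 5 although both genes lie on chromosome 1, and their assignment is uncertain. Of 10 tested partners and proteases of the mitochondria, none was called in either genotype by limma, and at an unadjusted p below 0.05 there were 3 higher in mice labelled WT (19.5% of features) and 2 lower in those labelled Il10-/- (22.3%).

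Dnajb6, a J-domain protein that suppresses aggregation of client proteins, had the largest fall among called members. Its level was 8.13, 8.04, 7.28, 7.44 and 8.73 in Il10-/- 0 Gy and 5.64, 5.44, 5.90, 6.53 and 6.49 in Il10-/- 7 Gy. The groups did not overlap, and it fell 3.79-fold, a difference of -1.92 (SE 0.33, limma, adjusted p = 0.0022). All 4 of its probes were called there, with differences of -2.16 to -1.78. In mice labelled WT it was 7.39, 7.40, 7.48, 8.80 and 7.37 at 0 Gy and 5.69, 5.53, 6.28, 6.63 and 6.33 at 7 Gy, also without overlap. That difference, -1.60 (SE 0.41, limma, adjusted p = 0.016), missed the unadjusted limit of 0.001. The brightest probe is given at chr16:85552209-85552268 (mm9, minus strand) while the gene is on chromosome 5, and its assignment is uncertain.

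Dnaja4, a J-domain protein of heart and other tissues, was 6.99, 7.10, 6.09, 5.43 and 6.93 in Il10-/- 0 Gy and 4.86, 4.55, 4.63, 5.01 and 5.69 in Il10-/- 7 Gy. The ranges touched only through replicate 4 at 0 Gy and replicate 5 at 7 Gy, and it fell 2.95-fold (difference -1.56, SE 0.36, limma, adjusted p = 0.0097). In mice labelled WT it was 5.32 to 7.93 at 0 Gy and 4.26 to 5.37 at 7 Gy, the largest difference below 0 among members not called there (-1.83, SE 0.46, limma, adjusted p = 0.016). Dnajc9, a nuclear J-domain protein that is a chaperone of histones H3 and H4, was 6.05, 6.07, 5.84, 6.22 and 5.30 in Il10-/- 0 Gy and 4.83, 4.79, 4.45, 4.97 and 4.86 in Il10-/- 7 Gy. It fell 2.17-fold without overlap (difference -1.12, SE 0.23, limma, adjusted p = 0.0062), while in mice labelled WT the difference was -1.05 (SE 0.43, limma, adjusted p = 0.11). The probe of Dnaja4 lies at chr9:54564061-54564120 (mm9, plus strand) and that of Dnajc9 at chr14:21204183-21204242 (mm9, minus strand). Leaving out 1 array ended the call of Dnaja4 in 8 of 10 fits and that of Dnajc9 in 6 of 10.

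Dnajb2, a J-domain protein that sorts clients to the proteasome, had the largest difference below 0 among members not called in mice labelled Il10-/-. It was 6.11 to 7.37 at 0 Gy and 5.25 to 6.23 at 7 Gy (difference -1.23, SE 0.29, limma, adjusted p = 0.012). In mice labelled WT it was 6.55 to 8.17 and 5.42 to 6.10, without overlap (difference -1.30, limma, adjusted p = 0.037). Of the 24 J-domain members tested, 1 rose in mice labelled WT and 3 fell in those labelled Il10-/-, against 4.48% and 5.87% of features.

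Of the 9 CCT genes, 4 were tested and none was called. Cct7, a subunit of the ring, was 6.04 to 7.73 in WT 0 Gy and 5.85 to 6.30 in WT 7 Gy, and 6.71 to 7.98 in Il10-/- 0 Gy and 5.84 to 6.74 in Il10-/- 7 Gy. Its differences were -0.92 and -1.11 (SE 0.31, limma, adjusted p = 0.023). Cct8, the theta subunit, was 5.19 to 6.41 in Il10-/- 0 Gy and 4.75 to 5.19 in Il10-/- 7 Gy, without overlap (difference -0.99, SE 0.27, limma, adjusted p = 0.021), and differed by -0.58 in mice labelled WT (0.49 with normexp). The 5 subunit genes Cct2, Cct3, Cct4, Cct5 and Cct6a passed the background filter and were removed by the filter on variation. Among 5 tested prefoldin and CCT partner genes, Vbp1, a prefoldin subunit that hands clients to CCT, fell in mice labelled Il10-/- (-1.16, limma, adjusted p = 0.0041, against 5.87% of features) and had a difference of -1.15 in those labelled WT.

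Erythroid genes moved with these lower members. The mean level of 9 erythroid genes was 6.86, 6.95, 7.03, 8.47 and 6.41 in WT 0 Gy and 5.12 to 6.23 in WT 7 Gy, and 6.50 to 7.92 in Il10-/- 0 Gy and 4.90 to 6.01 in Il10-/- 7 Gy. At least 7 of the 9 were well above background on every array. Replicate 4 of WT 0 Gy held the highest erythroid mean and also the highest level of Dnajb6 (8.80), Dnaja4 (7.93), Dnajb2 (8.17) and Cct7 (7.73). In Il10-/- 0 Gy, replicates 3 and 4 had the lowest erythroid means (6.76 and 6.50) and the lowest levels of Dnajb6, Dnaja4, Dnajb2 and Cct7. The same arrays also had the lowest means of platelet genes (7.51 and 7.09) and neutrophil genes (7.59 and 7.86) in that group. Their hepatocyte means were its highest (7.53 and 8.78). Dnajc9 did not follow this order, with 4.98 on replicate 4 of WT 0 Gy. The part of erythroid RNA in these differences was not tested.

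**Figure D4:**
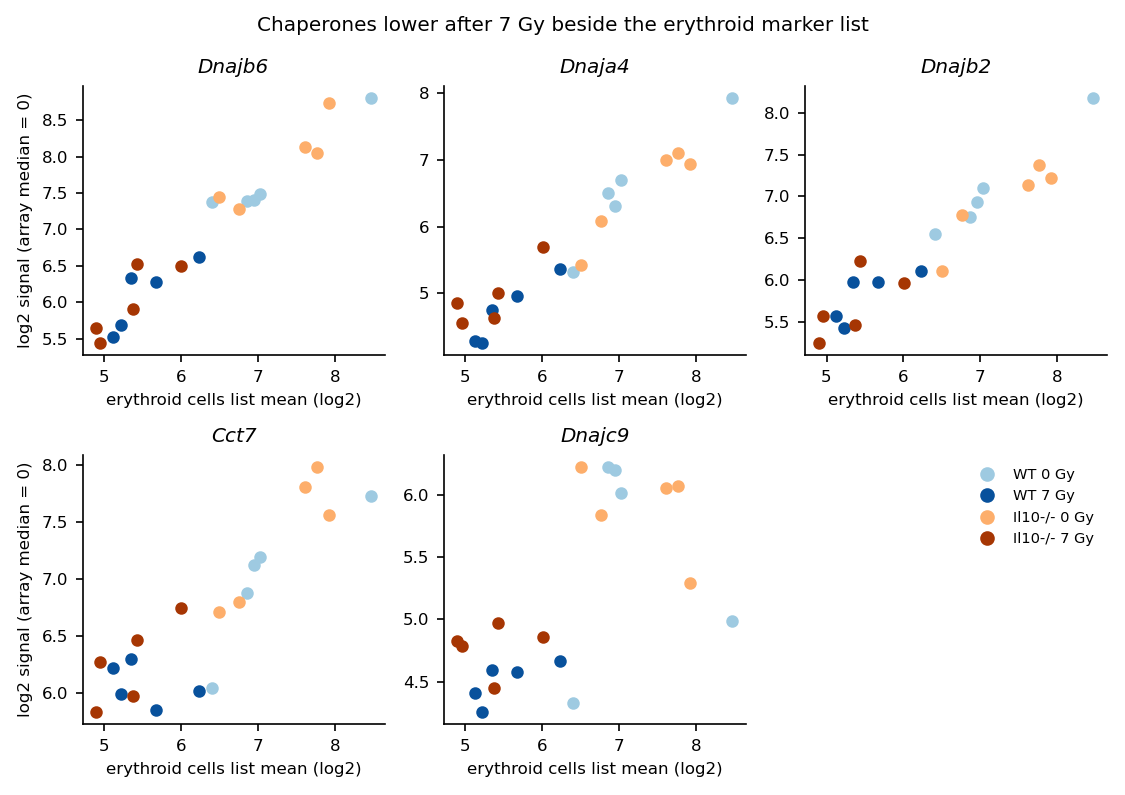
Level of Dnajb6, Dnaja4, Dnajb2, Cct7 and Dnajc9 on each array (y axis) against the mean level of 9 erythroid genes on the same array (x axis), both as log2 signal minus the array median, with 1 point per array coloured by group. Arrays of irradiated mice lie at erythroid means of 4.90 to 6.23 and those of sham mice at 6.41 to 8.47.

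Heat shock regulators and co-chaperones outside the rule were taken as a list of 27 genes, of which 16 were tested. Bag3, the partner of Hspb8 and HSP70 in autophagy, rose in both genotypes (1.80 for WT and 1.40 for Il10-/-, limma, adjusted p = 0.0096 and 0.0036). Fkbp5, an HSP90 co-chaperone induced by glucocorticoids, rose by 1.65 and 1.35 (limma, adjusted p = 0.0083 and 0.0013). None of the list fell in either genotype, and the 2 rises in each are to be read against 4.48% and 3.29% of features. The median differences of the list were 0.34 and 0.16.

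**Figure D5:**
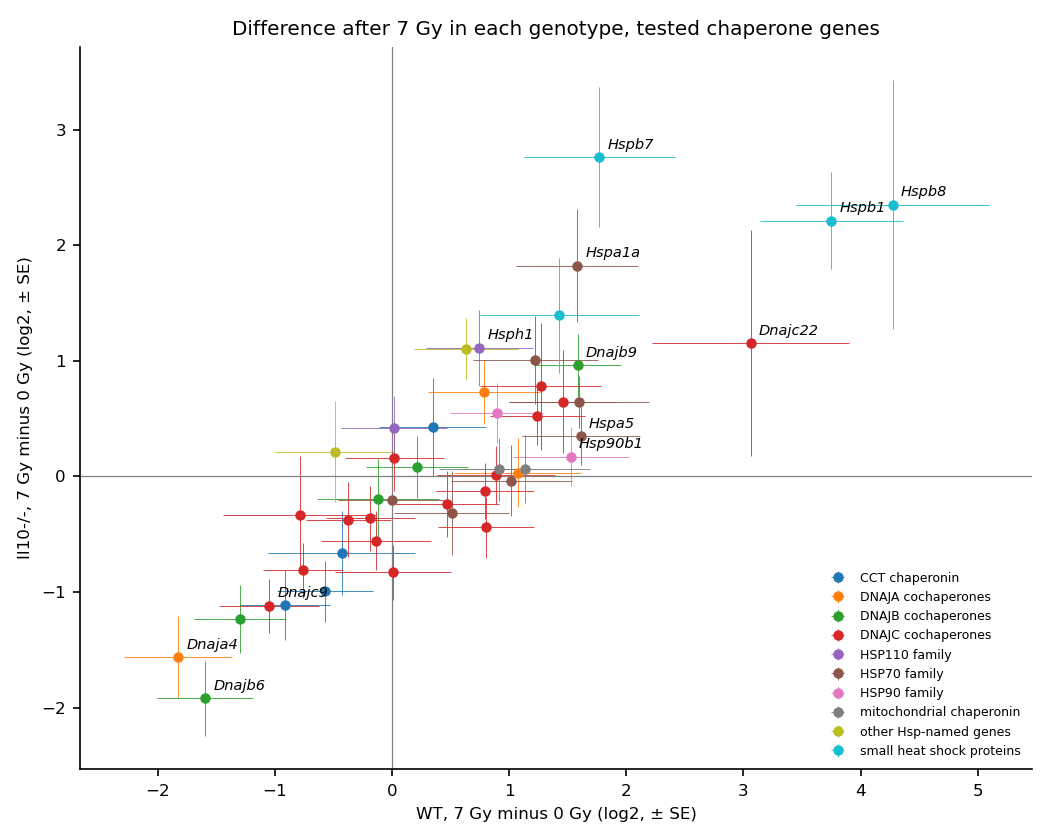
Difference between 7 Gy and 0 Gy (log2) for each of the 47 tested members in mice labelled WT (x axis) and in mice labelled Il10-/- (y axis), with SE as bars and colours by role. Hspb1 lies at 3.75 and 2.21 and Dnajb6 at -1.60 and -1.92, while Hspa5 and Hsp90b1 lie at 1.61 and 1.53 on the x axis and at 0.35 and 0.17 on the y axis.

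Between genotypes at 0 Gy, none of the 47 members was called (0.845% of features were), and limma gave 8 of 47 at an unadjusted p below 0.05 against 16.1% of features. The groups overlapped for every member, while they did not for 4.54% of features. The median over all features was 0.36 and that of the members 0.58. With 75th percentile scaling these were -0.07 and 0.26, and without WT 0 Gy replicate 5 they were 0.15 and 0.30. Hspb1 had the largest difference, higher by 1.97 (SE 0.57, limma, adjusted p = 0.16) in mice labelled Il10-/-, or by 1.64 without WT 0 Gy replicate 5. With the slide as a block (limma, adjusted p = 0.022) and with replicates 1 and 2 averaged (difference 2.48, limma, adjusted p = 0.090) it was called. Its values overlapped, since replicates 1 and 2 were 3.58 and 3.61 in WT 0 Gy and 3.58 and 3.47 in Il10-/- 0 Gy. Hspa5 differed by 1.25 and Hsp90b1 by 1.08, or by 0.84 and 0.67 without WT 0 Gy replicate 5. Dnajc14, a J-domain protein of the ER membrane, had the largest difference below 0 (-1.34, SE 0.58, limma, adjusted p = 0.28), with 2.99 to 5.82 in WT 0 Gy and 2.07 to 4.38 in Il10-/- 0 Gy.

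Between genotypes at 7 Gy, no member was called (0.00538% of features were), and 4 of 47 had an unadjusted p below 0.05 with limma, against 11.1% of features. Hsph1 was higher on every array labelled Il10-/- (5.95 to 6.75) than on any labelled WT (4.78 to 5.10). Its difference was 1.23 (SE 0.22, limma, adjusted p = 0.31), and the unadjusted limit was passed but not the adjusted one. Dnaja1 did not overlap either (7.93 to 8.90 against 7.04 to 7.89), with a difference of 0.89 (SE 0.26, limma, adjusted p = 0.36). Such separation was found in 2 of 47 members and in 2.25% of features. Hspa1a was higher by 1.15 on average and on 5 of 5 slides, and Hspa8 by 0.51 without overlap (exact permutation p = 0.0079, unadjusted). Cct8l1, a CCT-like gene, had the largest difference below 0 (-1.48, SE 0.47, limma, adjusted p = 0.38).

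The radiation responses of the genotypes were compared by the interaction of genotype and dose over all 20 arrays. No member and no feature was called (0 of 18587), and limma gave 3 of 47 members at an unadjusted p below 0.05 against 7.00% of features. These were Dnajc19, a subunit of the mitochondrial import motor (-1.24), Hsp90b1 (-1.36) and Hspa5 (-1.26), each with an adjusted p of 0.69 by limma. Hsp90b1 and Hspa5 had the smaller response in mice labelled Il10-/-. The mean of Dnajc19 was 3.28 in WT 0 Gy and 4.09 in WT 7 Gy, but 3.93 in Il10-/- 0 Gy and 3.49 in Il10-/- 7 Gy. Another probe of Dnajc19 was called as lower after 7 Gy in mice labelled Il10-/-. Without WT 0 Gy replicate 5 the interactions of Hspa5 and Hsp90b1 were -0.84 and -0.94. The median interaction of the members moved from -0.32 to -0.06 and that of all features from -0.20 to 0.02. The responses of Hspb8 differed by -1.92 (SE 1.46) and those of Hspb7 by 0.99 (SE 0.95). A call in 1 genotype and not in the other is therefore not shown to be a difference between them.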

How the data were processed

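Whole blood RNA was measured on 20 Agilent 4x44K mouse arrays. Per the file headers, the authors deposited Feature Extraction output (version 12.0.2.2, while the methods name 10.7) with a background-subtracted processed intensity for each spot. The series table holds log2 values that the authors deposited after filtering and normalization in BRB-ArrayTools, and it was used as an alternative.

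From the intensities, log2 was taken, spots marked as non-uniform outliers were left out, repeated spots were averaged, and each array was centred on the median of its 39429 non-control probes. A probe was removed if at least 25% of arrays marked it as non-uniform or not above background, or if under 20% of arrays lay 1.5-fold or further from its median. The remaining 18587 features were fitted with limma 3.58.1 (R 4.3.3) on the 10 arrays of the groups compared, or on all 20 for the interaction. A feature was called at p below 0.001 and a Benjamini-Hochberg rate under 10%, as in the methods. For a group with no array well above background, a fold was computed from the mean of the brighter group. It was set against the mean, per array, of the higher of the lowest signal well above background and the probe's own. The brighter group entered as measured, so this fold is a lower bound only where all its arrays were well above background. Hspa8, Hsp90ab1 and Dnajc3, which failed the filter on variation, had 2-sided exact permutation tests. No columns of other samples were present (0). The number of arrays limits the precision. The p-values measure the spread between the 5 arrays of a group, which may be in part technical.

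Groups and replicate numbers came from the sample titles, and the replicate number marks the slide in the file headers. Described genes were all called members, a set of well-known chaperones, the largest uncalled difference in each direction, and called genes of the pathway lists. Hspb2, Hspb3, Hspb6, Hspb9, Hspa13, Cct7, Cct8, Dnajc19 and Dnajb11 were added after their values were seen and are not in the single-gene checks of the closing section. Members, marker lists and pathway lists were chosen with earlier results of these data known. On simulated data with 18543 features, log2 changes of 2 given to 50 features were recovered in 62% (WT dose comparison), 90% (Il10-/- dose comparison), 64% (genotypes at 0 Gy) and 70% (genotypes at 7 Gy). For log2 changes of 1 these shares were 2%, 26%, 8% and 26%. The simulated noise was normal and independent between arrays. It held neither the closeness of replicates 1 and 2 nor a shared shift of WT 0 Gy replicate 5, so the shares may differ for the real arrays. Alternatives were other scalings (75th percentile, reference array, quantile), normexp with an offset of 50, the series table, no filter on background or variation, a rate under 5% alone, the slide as a block, all 4 groups in 1 fit, any probe of a gene, and leaving out each array. The mean of the heart muscle list as a covariate and the averaging of replicates 1 and 2 were chosen after seeing the data.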

Additional observations from a re-analysis of the deposited data

Results flagged for a closer look

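A sample far from the others of its group (Dixon's test) was found in 10 of the 96 groups of 5 arrays examined for the described members (10.4%). For independent normal values chance alone gives about 1 in 20. These groups share the same arrays and are not independent, and the share over all features was not computed. In Il10-/- 7 Gy, replicate 5 was the highest for Dnaja1 (8.90), Dnajb1 (7.58), Hsp90ab1 (9.997) and Hsph1 (6.75). In Il10-/- 0 Gy, replicate 3 was the lowest for Dnaja1 (6.72) and Hsp90ab1 (8.93), and replicate 4 was the highest for Hspd1 (6.51). In WT 7 Gy, replicate 4 was the highest for Hsp90ab1 (10.20) and replicate 5 for Dnajb9 (4.78). In WT 0 Gy, replicate 4 was the highest for Dnajb6 (8.80). All values are log2 levels relative to the array median.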

How the results depend on the processing

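Hspb1 kept its call in all 10 fits that left out 1 array in each genotype (3.42 to 4.09 in mice labelled WT, 2.03 to 2.62 in those labelled Il10-/-), as did Hspb8 in mice labelled WT (3.64 to 4.88) and Dnajb6 in mice labelled Il10-/- (-2.08 to -1.72). Shares in parentheses are those of all features called. In mice labelled WT the count of 3 called members (6.80%) was 7 with quantile normalization (8.18%), 1 with normexp (2.28%) and 5 without the 1.5-fold filter (5.83%). It was 10 at a rate under 5% alone (14.6%) and 9 with all 4 groups in 1 fit (11.4%). In mice labelled Il10-/- the count of 5 (9.16%) was 0 with normexp (0%), 14 at a rate under 5% alone (21.8%) and 3 with all 4 groups in 1 fit (6.52%). It was 0 with the heart muscle covariate (2.22%) and 1 with replicates 1 and 2 averaged (4.38%). The genotype comparison at 0 Gy had 1 call (Hspb1) with replicates 1 and 2 averaged (0.759%). That at 7 Gy had 2 (Hspa1a and Hsph1) with the heart muscle covariate (1.48%, against 0.00538% without it). Leaving out 1 array gave 2 to 5 calls in mice labelled WT, with 5 without WT 0 Gy replicate 5, and 0 to 0 in the genotype comparisons and the interaction. In mice labelled Il10-/- it gave 2 to 6, with 2 without replicate 1 or 2 at 0 Gy or replicate 2 at 7 Gy, and 3 without replicate 1 or 3 at 7 Gy. Over all features these fits called 4.64% to 8.46% in mice labelled WT and 6.1% to 8.26% in those labelled Il10-/-. The cause was not tested.

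Among the members named by the rule, changes of sign were found only where the difference was not called. In mice labelled WT, Dnajb1 (0.21) was -0.012 with 75th percentile scaling and -0.18 with quantile normalization, and -0.058 to 0.36 when 1 array was left out. In mice labelled Il10-/-, normexp gave -0.22 for Dnajb1, -0.10 for Hsp90b1, -0.14 for Hspd1 and -0.19 for Hspe1. Hspa9 was 0.11 with the reference array and 0.11 with the series table. Hspd1 was -0.020 with the heart muscle covariate, and with replicates 1 and 2 averaged Hspd1 was -0.062 and Hspe1 -0.023. Leaving out 1 array gave -0.13 to 0.18 for Dnajb1, -0.18 to 0.15 for Hspa9, -0.047 to 0.26 for Hspd1 and -0.059 to 0.27 for Hspe1.

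With the replicate number, which marks the slide, as a block, 5 members were called in mice labelled WT (Dnaja4, Dnajb6, Dnajc22, Hspb1 and Hspb8), 2 in mice labelled Il10-/- (Dnajb6 and Hspb1) and 1 at 0 Gy between genotypes (Hspb1). Over all features the shares called were 8.75%, 6.94% and 2.07%. The numbers share a slide, but no pair of groups had a correlation of same-numbered arrays' deviations above 0.1 in all 5. It was above 0.1 in 4 of 5 for WT 0 Gy with WT 7 Gy (mean r 0.22) and for WT 7 Gy with Il10-/- 7 Gy (mean r 0.41), and in 2 of 5 for the other pairs (single values down to -0.66).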
